A study of Mus musculus with 12 samples.

Results

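Expression of 10 immediate early genes of neuronal activity was examined in male mouse ventral hippocampus after chronic intake of corticosterone (CORT), the glucocorticoid by which rodents respond to stress. The genes were Fos, Fosb, Junb, Egr1, Egr2, Egr4, Arc, Npas4, Nr4a1 and Ier2. They were picked by symbol, with no threshold on a measured value, and all 10 were found among the 17564 genes of the deposited tables. The mice were wild-type (WT) or carried 1 Met-coding copy of Bdnf (BDNF het-Met, a heterozygous Val66Met knock-in), all on a C57BL/6 background by the labels. In each genotype, CORT at 25 mg/l in drinking water with 1% ethanol was compared with vehicle (VEH), which was 1% ethanol alone. Treatment lasted 6 weeks and started at 2 months of age. The groups were VEH and CORT of WT mice and VEH and CORT of BDNF het-Met mice, with 3 libraries each by the labels and 12 in all. Each library held RNA of 2 animals and so does not stand for a single mouse. Brains were taken around midday, in the light phase of the mice.

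Immediate early genes are transcribed within minutes of synaptic activity, without the need for newly made protein, and their RNA decays quickly. Calcium entry and ERK signalling activate factors such as CREB and SRF that are already bound at their promoters. Fos, FosB and JunB are AP-1 subunits, the Egr proteins are zinc finger factors, Npas4 is a neuronal factor linked to inhibitory synapses, and Nr4a1 is an orphan nuclear receptor. Arc is an effector that acts in the dendrite to remove AMPA receptors from synapses. In the hippocampus these transcripts are widely used as marks of recently active neurons, although Fos, Junb, Ier2 and Nr4a1 are also induced in glia and vessels.

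The cAMP response element (CRE), to which CREB binds, has the core TGACG. This core was searched on both strands in the 250 bases before each RefSeq gene start on GRCm38.p6. Promoters of 7 of the 10 genes were used, 11 in all because Egr2 has 5 annotated starts. Arc, Egr1 and Ier2 were left out of the search, so the counts below say nothing about their promoters. Sites further than 250 bases before a start were not searched in any gene. All 7 genes held the core in at least 1 promoter, against 19.8% of the 27025 genes with a promoter in the same table. The letters TGACGTCA of the full element, which contain the core on both strands, were in none of the 7 genes and in 1.77% of all genes. The CArG box, to which SRF binds, was in the promoters of Egr2 alone among the 7 and in 1.62% of all genes. The letters AGAACA, the core of a glucocorticoid receptor site, were in none of the 7 and in 18.2% of all genes. A match is a stretch of letters and not a measured binding site. The 180 bases before the start are shown for Fosb and Egr4, on which the comparison between genotypes below turns, and for Fos, Nr4a1 and Npas4, which varied most between libraries among the genes with a promoter. Capitals mark TGACG or its reverse complement.
Fos, chr12:85473710-85473889, plus strand: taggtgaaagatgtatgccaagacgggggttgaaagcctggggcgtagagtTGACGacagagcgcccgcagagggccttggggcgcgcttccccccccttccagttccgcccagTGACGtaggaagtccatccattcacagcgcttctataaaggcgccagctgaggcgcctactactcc
Fosb, chr7:19310046-19310225, minus strand: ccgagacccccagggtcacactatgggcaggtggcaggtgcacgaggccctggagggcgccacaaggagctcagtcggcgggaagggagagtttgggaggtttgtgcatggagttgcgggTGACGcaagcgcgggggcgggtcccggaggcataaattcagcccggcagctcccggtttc
Egr4, chr6:85513590-85513769, minus strand: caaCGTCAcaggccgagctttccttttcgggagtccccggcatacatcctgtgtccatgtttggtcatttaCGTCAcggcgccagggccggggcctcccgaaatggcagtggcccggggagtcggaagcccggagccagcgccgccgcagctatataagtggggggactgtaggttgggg
Nr4a1, chr15:101266666-101266845, plus strand: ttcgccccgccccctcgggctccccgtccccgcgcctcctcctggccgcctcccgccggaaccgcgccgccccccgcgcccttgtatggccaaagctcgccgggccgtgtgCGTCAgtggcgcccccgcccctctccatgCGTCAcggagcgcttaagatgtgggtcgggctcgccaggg
Npas4, chr19:4989972-4990151, minus strand: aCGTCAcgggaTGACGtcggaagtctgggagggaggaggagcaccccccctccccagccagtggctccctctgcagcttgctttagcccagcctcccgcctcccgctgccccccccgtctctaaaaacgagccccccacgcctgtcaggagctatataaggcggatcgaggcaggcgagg
The core closest to the start began 66 bases before it in Fos, 60 in Fosb, 109 in Egr4, 40 in Nr4a1 and 169 in Npas4. The RefSeq starts of Nr4a1 and Npas4 lie inside the longer annotated genes, and so do the whole stretches shown for them. The start of Fosb lies a few bases inside its annotated gene. The promoters of Egr2 that held a match also lie inside the annotated gene. In Junb, not shown, the core began 106 bases before the start.

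The 10 genes differed widely in level. The authors' deposited mean over libraries, in log2 CPM (reads of the gene scaled to library size), was 6.06 for Egr1 and 5.80 for Arc, above 80.7% and 77.2% of all genes. It was 4.92 for Junb, 4.75 for Nr4a1 and 3.74 for Egr4. The other 5 genes were weakly expressed. Fosb had a mean of 2.47, Npas4 of 1.90, Fos of 1.76 and Ier2 of 1.70, and Egr2 with -0.07 lay above only 11.6% of genes. Long transcripts collect more reads, so levels of different genes were compared per kilobase of exon. On that scale Arc was highest with 18.2 CPM per kilobase, followed by Egr1 with 14.9 and Junb with 13.1. Nr4a1 had 7.67, Egr4 6.21, Ier2 2.14 and Fos 1.44 CPM per kilobase. Npas4 with 0.90 and Fosb with 0.89 lay side by side, and Egr2 was lowest with 0.28. These are means over all groups, so no spread goes with them, and the order of close neighbours was not tested. Values of single libraries were not analysed here. Each error below is therefore the standard error (SE) of the authors' limma-voom fit, a linear model on log2 CPM.

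CORT shifted none of the 10 genes past the thresholds of the study in either genotype. These thresholds define a differentially expressed gene (DEG) by a fold change above 1.3 together with p below 0.05 before correction. DEGs made up 1.25% of all genes (WT) and 3.24% (BDNF het-Met), and among the 10 genes there were 0 in each. Without the fold change minimum, 3.83% of all genes passed (WT) and 13.2% (BDNF het-Met) by limma, and again 0 of the 10. The smallest p of the 10 was 0.160 in WT (Ier2) and 0.0639 in BDNF het-Met mice (Arc). Adjusted p values over all genes by limma lay at 0.999 or above in WT and between 0.407 and 0.932 in BDNF het-Met mice.

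In WT mice the log2 fold change (CORT minus VEH) was above 0 for 8 of the 10 genes and below 0 for Egr1 and Nr4a1. The median of the 10 was 0.10, beside -0.0026 for all genes, of which 48.9% were above 0. In BDNF het-Met mice it was above 0 for 3 genes, Arc, Junb and Npas4, and below 0 for 7. The median there was -0.08, beside -0.0061 for all genes, of which 48.2% were above 0. These medians describe the list, and no test was made over it.

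**Figure D1:**
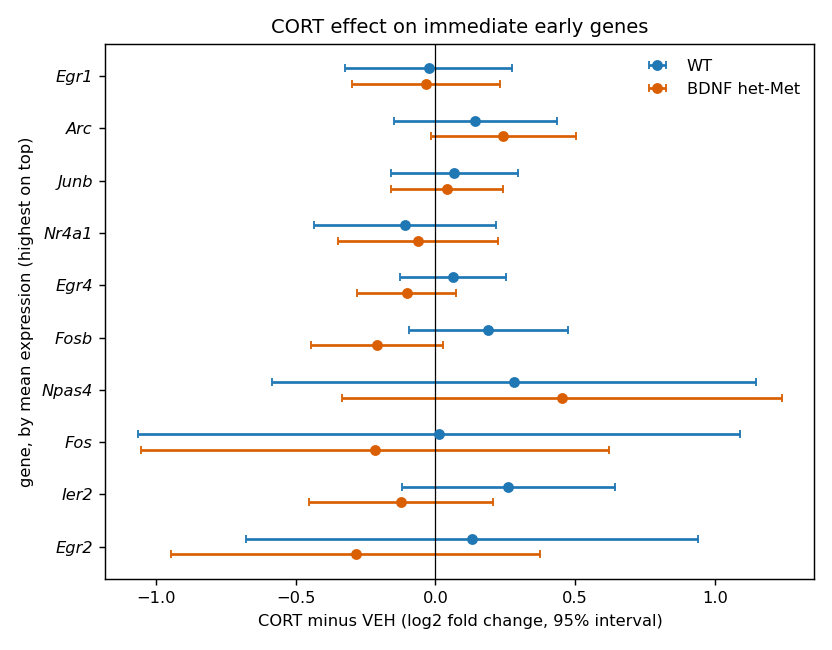
Log2 fold change of CORT against VEH (horizontal axis) for each of the 10 genes, ordered by mean expression, in WT (blue) and BDNF het-Met mice (orange). Points are estimates of the deposited limma-voom fit and bars are 95% intervals, and every bar crosses 0. The bars of Fos, Npas4 and Egr2 are the widest, and the points of Fosb lie on opposite sides of 0 in the 2 genotypes.

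Among the AP-1 genes, Fos (GRCm38 chromosome 12, 85473890 to 85477273) had a log2 fold change of 0.01 with an SE of 0.49 in WT mice. In BDNF het-Met mice it was -0.22 with an SE of 0.38. A change of Fos would have had to reach 1.08 on the log2 scale (WT) and 0.84 (BDNF het-Met) for a p of 0.05. In WT mice an estimate smaller than about 2.11-fold would therefore not have reached this p at this SE. Fosb (chromosome 7, 19302696 to 19310051) encodes FosB and its stable truncated form, and reads were counted per gene, so the forms were not told apart. Its log2 fold change was 0.19 with an SE of 0.13 in WT mice (p 0.170 by limma) and -0.21 with an SE of 0.11 in BDNF het-Met mice (p 0.0795 by limma). Junb (chromosome 8, 84974484 to 84978718) was measured more tightly, with 0.07 and an SE of 0.10 (WT) and 0.04 and an SE of 0.09 (BDNF het-Met). Both intervals of Junb lay between -0.16 and 0.29. Exons of Junb share 173 bases with exons of Prdx2 on the opposite strand. The strand setting of the counting is not given in the sources used here, so reads from those bases may not be told apart.

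Among the zinc finger genes, Egr1 (chromosome 18, 34859823 to 34864984) was the most expressed and had log2 fold changes of -0.02 (WT) and -0.03 (BDNF het-Met). Its 95% intervals ran from -0.32 to 0.28 and from -0.30 to 0.23. Egr4 (chromosome 6, 85511121 to 85513589) had the smallest SE of the 10 genes, 0.09 (WT) and 0.08 (BDNF het-Met). Its log2 fold changes were 0.06 and -0.10, with p 0.485 and 0.225 by limma. Egr2 (chromosome 10, 67535475 to 67542188), a regulator of myelination in peripheral nerve that is also induced in neurons, had 0.13 with an SE of 0.37 and -0.28 with an SE of 0.30. The estimates of Egr2 rest on the weakest expression of the list.

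Arc (chromosome 15, 74669083 to 74672570) came closest to the threshold in BDNF het-Met mice. Its log2 fold change was 0.14 with an SE of 0.13 (WT) and 0.24 with an SE of 0.12 (BDNF het-Met). The interval of the latter ran from -0.02 to 0.50, and its estimate is 1.18-fold. Npas4 (chromosome 19, 4984355 to 4990316) had the largest estimates in both genotypes, 0.28 with an SE of 0.39 and 0.45 with an SE of 0.36, and 95% intervals from -0.59 to 1.15 and from -0.33 to 1.24. As a fold change these were 1.22 and 1.37, and the intervals span both directions. Nr4a1 (chromosome 15, 101254269 to 101274795) had -0.11 with an SE of 0.15 and -0.06 with an SE of 0.13, below 0 in both genotypes but by less than their SEs. Ier2 (chromosome 8, 84661331 to 84662852), a nuclear protein whose gene responds to serum and growth factors, had 0.26 with an SE of 0.17 and -0.12 with an SE of 0.15. Its intervals ran from -0.12 to 0.64 and from -0.45 to 0.21.

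A genotype difference in the CORT effect was tested for each gene by subtracting the WT from the BDNF het-Met log2 fold change. Fosb was the only member of the list with an uncorrected p below 0.05, where 2.41% of all genes passed, 1.07% with a difference above 0 and 1.34% below 0. The difference for Fosb was -0.40 with an SE of 0.17 and a 95% interval from -0.77 to -0.03 (p 0.0375). It did not pass the adjustment over all genes, where its adjusted p was 1.0. The difference was below 0 for 7 of the 10 genes and above 0 for Npas4 (0.17 with an SE of 0.53), Arc (0.10 with an SE of 0.18) and Nr4a1 (0.05 with an SE of 0.20). Estimates below 0 were also found for Ier2 (-0.39 with an SE of 0.23, p 0.121), Egr2 (-0.42 with an SE of 0.47), Fos (-0.23 with an SE of 0.62) and Egr4 (-0.17 with an SE of 0.12, p 0.187). For Egr1 the difference was -0.01, with an interval from -0.41 to 0.39. For Junb it was -0.03, with an interval from -0.33 to 0.28. These intervals leave room for differences of some size in either direction.

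The mean of both CORT effects has a smaller error than either effect alone. For Arc it was 0.19 with an SE of 0.09 (p 0.0524, adjusted p 0.382), the smallest p of the 10 genes. It was 0.37 with an SE of 0.27 for Npas4, and the other 8 genes lay between -0.10 and 0.07. An uncorrected p below 0.05 for the mean was found for 13.3% of all genes (7.17% higher and 6.18% lower under CORT) and for 0 of the 10. With the fold change minimum it was 2.26% of all genes and again 0.

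Several of the 10 genes varied strongly between libraries of the same group. The moderated and the ordinary SE of a gene together give its residual standard deviation within groups, relative to the prior value that limma expects at the weights voom assigns from read depth. This relative spread was 1.01 for the median gene. It was 3.48 for Fos, 3.17 for Npas4, 2.64 for Egr1, 2.52 for Arc and 2.38 for Nr4a1. These 5 genes were within the 10% of genes with the largest relative spread, which begins at 1.99. Junb had 1.65 and Egr2 1.48, above 84.1% and 79.6% of genes. Ier2 with 1.09, Egr4 with 0.94 and Fosb with 0.93 varied like the typical gene. Among the well expressed genes, Egr1 and Arc thus varied more between libraries than Egr4, whose SE was smaller at a lower level. No animal of these libraries had an activity readout of its own here, so what the libraries of a group differed in was not tested.

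**Figure D2:**
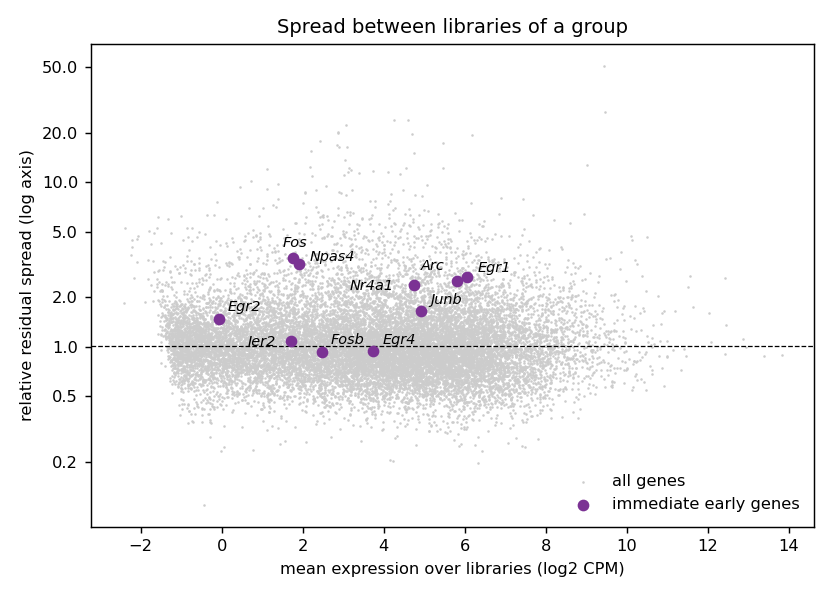
Residual spread within groups relative to limma's prior value (vertical, log axis) against mean expression in log2 CPM (horizontal) for all 17564 genes (grey) and the 10 immediate early genes (purple), with a dashed line at the median gene (1.01). Fos, Npas4, Egr1, Arc and Nr4a1 lie between 2.38 and 3.48, while Egr4, Fosb and Ier2 lie near the line.

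A joint F test over all 4 groups is part of the deposited tables. It had an uncorrected p below 0.05 for 7.43% of all genes and, among the 10, for Fosb (p 0.0199 by limma) and Egr4 (p 0.0338 by limma). Adjusted over all genes, p was 0.617 and 0.636. The F spans 3 contrasts. Subtracting the squared t values of the CORT comparisons leaves a remainder for WT against BDNF het-Met mice, over both treatments. This remainder has no p of its own, and for 610 genes it fell slightly below 0. It was 10.3 for Egr4 and 9.16 for Fosb, beside a median of 0.433 for all genes, higher than 99.5% and 99.3% of genes. Both lay in the 5.0% of genes with the largest remainder, and the other 8 did not. The remainder of Fos was 2.44, of Egr2 2.16 and of Ier2 1.59, and those of Egr1, Arc, Junb, Nr4a1 and Npas4 were 0.422 or lower.

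The remainder carries no sign, but the SEs do. Voom gives a gene less weight where it is less expressed, so the genotype in which a gene is lower has the larger SE than its mean level alone calls for. Each gene's ratio of WT to BDNF het-Met SE was compared with the running median over genes of like expression and converted to a log2 difference with the slope of SE on expression. The departure of the ratio from that median, unsigned and before conversion, followed the size obtained from the remainder. Spearman's rho across genes was between 0.784 and 0.874 in the lowest 17 of 20 bins of expression. In the highest bin rho was 0.364, the bins between are not given here, and genes are not independent replicates. Both quantities come from the same fit and rho used no sign, so rho is neither independent support nor a check of direction. Fosb read as higher in BDNF het-Met than in WT mice, by 0.20 on the log2 scale from the SEs and by 0.25 from the remainder. Egr4 read the other way, lower in BDNF het-Met mice by 0.22 from the SEs (-0.22) and by 0.19 from the remainder. Fos (0.44 and 0.48) and Egr2 (0.31 and 0.35) read as higher in BDNF het-Met mice, with remainders that 87.9% and 85.6% of genes stayed at or below. These genotype values are derived from fitted quantities, have no error of their own and are given as a description.

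**Figure D3:**
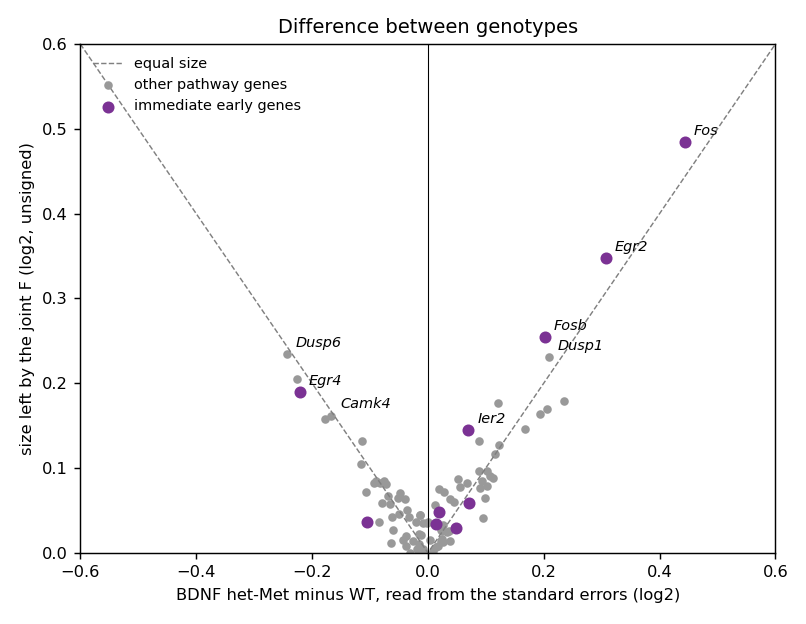
Difference between genotypes over both treatments for the 10 immediate early genes (purple) and the 84 other genes of the pathway lists (grey). The horizontal axis is BDNF het-Met minus WT as read from the SEs, and the vertical axis the unsigned size left by the joint F, both in log2 units, and the dashed lines mark equal size. Fos, Egr2 and Fosb lie to the right, and Egr4 and Dusp6 to the left.

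Lists of 84 further genes of the same signalling were then read in the same way. They held 20 rapidly induced transcription factors, 22 rapidly induced effector genes, 10 delayed activity genes, 24 upstream activators and 8 partners or co-repressors, and all were in the tables. By the DEG thresholds, 0 of the 84 were called in the WT comparison and 1 in the BDNF het-Met comparison, where DEGs made up 1.25% and 3.24% of all genes. This was Mef2c, an activity-dependent transcription factor, which fell by 0.53 on the log2 scale with an SE of 0.22 (p 0.0343, adjusted p 0.348 by limma). No upstream activator had an SE above 0.22 in BDNF het-Met mice, and the largest relative spread of that list was 5.21. Mef2c was thus among the least tightly measured genes of its list. At an uncorrected p below 0.05 alone, 3 of the 84 were higher and 0 lower under CORT in WT mice, where 2.25% of all genes were higher and 1.57% lower. BDNF het-Met mice had 6 higher and 6 lower genes, where 6.55% of all genes were higher and 6.64% lower. The shares in BDNF het-Met mice were thus near those of all genes. For the mean over genotypes 12 of the 84 were higher and 8 lower, where 7.17% of all genes were higher and 6.18% lower. At this p alone both shares of the lists were thus above those of all genes, more so for higher than for lower genes. The lists were chosen with earlier results of these data known, so no conclusion is drawn from this. With the fold change minimum 0 of the 84 were higher and 1 lower for the mean, where 2.26% of all genes passed.

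Of the rapid transcription factors, 0 of 20 passed p below 0.05 in WT mice, and 2 higher and 1 lower in BDNF het-Met mice. Nr4a3, a close relative of Nr4a1, had 0.34 with an SE of 0.11 in BDNF het-Met mice (p 0.0120, adjusted p 0.281 by limma) and 0.14 with an SE of 0.13 in WT mice. Fosl2, another AP-1 subunit, had 0.29 with an SE of 0.11 (p 0.0286 by limma) and 0.21 with an SE of 0.13. Per1, a clock gene that also responds to CREB and to glucocorticoids, had -0.15 with an SE of 0.05 in BDNF het-Met mice (p 0.0164 by limma) and -0.04 with an SE of 0.06 in WT mice. For Csrnp1, a factor induced by growth signals, the difference between genotypes had the smallest p of the list, 0.0546, with -0.29 and an SE of 0.13. The medians of the list were 0.03 (WT) and -0.07 (BDNF het-Met).

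Of the 22 rapid effector genes, 1 was higher in WT mice, and 2 were higher and 2 lower in BDNF het-Met mice at p below 0.05. The gene in WT mice was Gadd45b, which acts in DNA demethylation and stress signalling, with 0.22 and an SE of 0.09 (p 0.0386 by limma). Dusp6, a phosphatase that switches off ERK, had 0.29 with an SE of 0.08 in BDNF het-Met mice (p 0.00459, adjusted p 0.264 by limma) and 0.01 with an SE of 0.09 in WT mice. The difference between genotypes was 0.28 with an SE of 0.12 (p 0.0389). Its remainder for genotype was 15.4, higher than that of Egr4, and it read as lower in BDNF het-Met mice by 0.24 (-0.24 from the SEs). Homer1, a scaffold of metabotropic glutamate receptors with an activity-induced short form, had 0.11 with an SE of 0.04 in BDNF het-Met mice (p 0.0172 by limma). Sertad1 (-0.35 with an SE of 0.12) and Trib1 (-0.36 with an SE of 0.13) were lower in BDNF het-Met mice, with p 0.0108 and 0.0172 by limma. The list medians were -0.01 and -0.03.

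Of the 10 delayed genes, 1 was higher in each genotype. Vgf, a neuropeptide precursor induced by BDNF, had 0.17 with an SE of 0.07 in WT mice (p 0.0283 by limma) and 0.10 with an SE of 0.06 in BDNF het-Met mice. Bdnf itself, the altered gene of the BDNF het-Met mice and a target of Npas4 and CREB, had 0.33 with an SE of 0.08 in BDNF het-Met mice and -0.03 with an SE of 0.09 in WT mice. Of the 24 upstream activators, 1 was higher in WT mice, and 1 was higher and 2 lower in BDNF het-Met mice. Camk2a, the calcium-dependent kinase of excitatory synapses, had 0.13 with an SE of 0.06 in WT mice (p 0.0471 by limma). Mapk3, which encodes ERK1, had -0.23 with an SE of 0.06 in BDNF het-Met mice (p 0.00394 by limma) and 0.02 with an SE of 0.07 in WT mice, and the difference was -0.24 with an SE of 0.09 (p 0.0244). Cacna1d, an L-type calcium channel, had 0.14 with an SE of 0.06 in BDNF het-Met mice (p 0.0328 by limma). Of the 8 partners and co-repressors, 0 passed in WT mice, and Jdp2, a repressor that dimerizes with Jun proteins, was lower in BDNF het-Met mice with -0.25 and an SE of 0.10 (p 0.0306 by limma). The difference between genotypes for Nab2, a co-repressor of Egr proteins, was -0.16 with an SE of 0.10 (p 0.129).

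**Figure D4:**
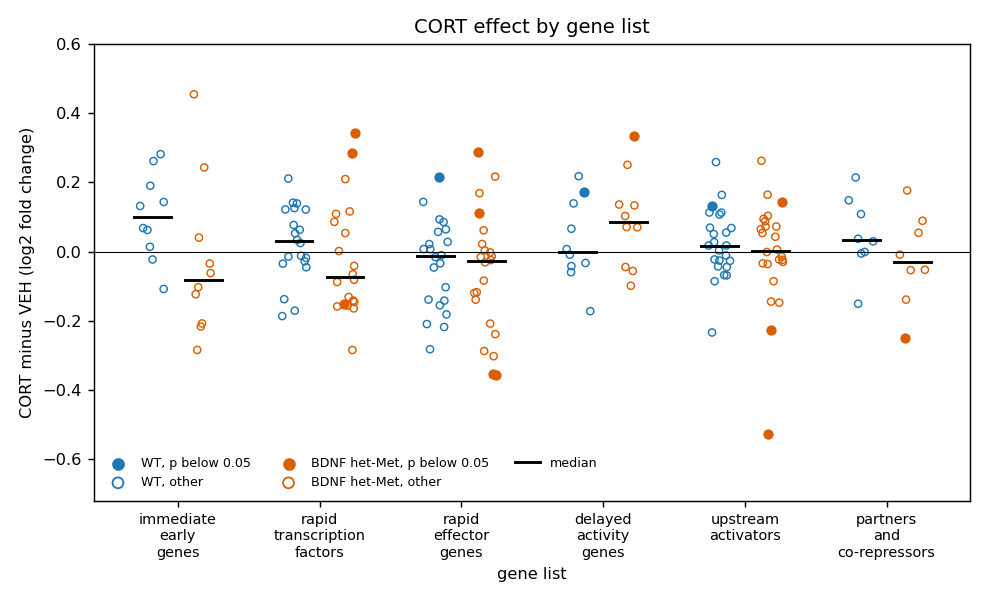
Log2 fold change of CORT against VEH (vertical axis) for the 10 immediate early genes and the 5 pathway lists (horizontal axis), 1 point per gene, in WT (blue) and BDNF het-Met mice (orange). Filled points have an uncorrected p below 0.05 by limma, 0 of 10 for the immediate early genes in each genotype, and black bars are list medians.

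The median relative spread of the 10 genes was 2.02, beside 1.01 for the median gene. It was 1.37 for the rapid transcription factors, 1.23 for the rapid effector genes and 1.45 for the delayed genes. The upstream activators with 1.05 and the partners and co-repressors with 1.14 lay near the median gene. Of all 84 genes, 11 were within the 10% of largest spread. They were 4 rapid transcription factors, 1 rapid effector gene, 2 delayed genes, 3 upstream activators and 1 partner or co-repressor. The largest spread of the 84, 5.21, was that of an upstream activator. Nr4a2 had 4.54, Ier5 3.47 and Jun 2.33, values named after they were seen. Marker genes of cell types also varied, and their part in the spread of the immediate early genes was not tested. The 5 neuron markers had a median spread of 0.96, the 5 dentate granule cell markers of 3.27, the 5 CA pyramidal markers of 2.87 and the 5 oligodendrocyte markers of 4.61. The 5 choroid plexus markers had the largest spread of the marker lists, with a median of 19.4 and a range from 10.9 to 50.9. Their median CORT effect was -0.76 in WT mice against 0.21 in the BDNF het-Met group. Single markers had SEs of 0.94 to 2.32 (WT) and 0.86 to 2.08 (BDNF het-Met). The difference was above 0 for 5 of 5, from 0.86 to 1.69 with SEs of 1.27 to 3.12. An uncorrected p below 0.05 was found for 0 of 5. As markers of the same tissue, the 5 genes are not separate observations.

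All marker genes used to check the tissue were present, and those of neurons were strongly expressed, between 7.81 and 11.4 log2 CPM. At p below 0.05 by limma, 0 of 5 neuron and 0 of 5 dentate granule cell markers passed in either genotype, with medians of 0.02 and -0.0015 for neurons and 0.09 and 0.25 for granule cells. Under CORT, 4 of 5 microglia, 3 of 5 astrocyte and 2 of 5 oligodendrocyte markers were lower and 1 astrocyte marker higher in BDNF het-Met mice. Of the CA pyramidal markers 2 and of the interneuron markers 1 were higher there, and in WT mice 1 astrocyte marker was higher and 1 lower. Of all genes, 6.64% were lower and 6.55% higher in BDNF het-Met mice, and 1.57% lower and 2.25% higher in WT mice. The part of these cells in the values of the immediate early genes was not tested, and in tissue RNA fewer cells and less RNA per cell cannot be told apart. The fit listed 7 residual degrees of freedom, where 12 libraries in 4 groups leave 8. In the most expressed 5% of genes the SE was 1.118 times as large in WT as in BDNF het-Met mice, the value that 2 against 3 libraries gives beside 3 against 3 (1.118). Which library the fit may have left out was not analysed here.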

How the data were processed

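After removal of low-quality reads, the authors used STAR for alignment to GRCm38 with Ensembl annotation, featureCounts for gene counts and limma-voom for the model. Not given in the sources used here are versions, the low-count filter, normalization factors and strand setting. The deposited log2 values are mean expression (log2 CPM), log2 fold change and its ordinary SE. The deposited p-values are uncorrected and Benjamini-Hochberg adjusted, and the deposited scores are the moderated t and the joint F. The study's methods give only an approximate depth for these libraries. No column of a single library was used, so the depth of each was not analysed here, and it enters the precision through the SE.

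By the name of the comparison the listed values are VEH minus CORT, so the sign was turned. The printed SE is the moderated one (log2 fold change over t). Differences and means over genotypes used both SEs at 10.9 total degrees of freedom, with adjustment over 17564 genes. Gene positions, exon lengths and overlaps came from GENCODE M21 (GRCm38), and promoters from RefSeq. Derivations were tested on simulated data with limma 3.58.1, and computed with Python 3.11.15, scipy 1.17.1 and pandas 2.3.3. The simulated genotype differences were larger than those read for the 10 genes, so signs at the sizes read here were not tested. The simulation also assumed that the left-out library was from the WT CORT group. The 10 genes, pathway and marker lists were chosen with earlier results of these data known. All 10 were named, and per pathway list and genotype up to 4 genes of smallest p below 0.05 and the gene of smallest p for the difference. The p-values measure the spread between libraries of pooled animals.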

Additional observations from a re-analysis of the deposited data

Results flagged for a closer look

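The CORT effect differed between genotypes at an uncorrected p below 0.05 for 4 of the genes read here. They were 1 of the 10 members and, of the 84 further genes, 2 with a difference above 0 and 1 below 0. Dusp6, Bdnf and Mapk3 were named for having the smallest such p of their lists, so being named adds no evidence. The difference (BDNF het-Met minus WT) was -0.398 for Fosb, 0.281 for Dusp6, 0.366 for Bdnf and -0.243 for Mapk3 on the log2 scale. None passed the adjustment over all genes, and 2.41% of all genes had such a p.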

How the results depend on the processing

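No paired analysis was possible because the columns used carry no values of single libraries, and for the same reason leaving out each replicate was not run. The count of members called for the difference between genotypes (1, Fosb) was 0 at an uncorrected p below 0.01 and 0 at an adjusted p below 0.05. The other counts of called members were 0, and stricter thresholds could not raise them, so those settings tested nothing. They also stayed at 0 with the ordinary SE and with centring by expression quintile. For the 8 members with a relative spread above that of the median gene, the ordinary SE was the larger one. Their p could only rise with it, so that setting tested nothing for them. Within each genotype the count stayed at 0 without the fold change minimum as well. With the ordinary SE the p of Fosb for the difference was 0.0456. The median CORT effect of the 10 genes lay between 0.07 and 0.13 in WT and between -0.10 and -0.03 in BDNF het-Met mice over all alternatives. Of the 50 alternative values of single members, 30 used the ordinary SE, which changes the p but not the estimate. The other 20, centred by expression quintile, kept their sign. All 50 kept their side of p 0.05, which the ordinary SE could not have changed for those 8 members.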
